A study of Mus musculus with 12 samples.

Results

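The genes described here moved in the same direction with chronic stress in the medial prefrontal cortex of wild-type (WT) mice and of mice lacking Cav3.1, the T-type calcium channel encoded by Cacna1g (KO). Members were chosen by sign alone. The 6 stressed libraries were set against the 6 unstressed ones with genotype as a factor, and a gene was a member when its log2 change with stress had the same sign in WT and in KO. The deposited table lists 24411 genes, and 15199 of these had enough counts to be tested. Of the tested genes, 7019 (46.2%) met the rule, 3460 higher and 3559 lower with stress in both genotypes, and 8180 (53.8%) had opposite signs. A shared sign is therefore a property of the choice and is not counted as a result.

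The mice were females of 8 to 12 weeks on a C57BL/6J background. There were 4 groups of 3 libraries: WT without stress, WT with chronic stress, Cav3.1 KO without stress and Cav3.1 KO with chronic stress. Chronic stress was a forced swim or a tail suspension test of 5 min, once a day for 5 days. The labels do not say which of these tests a given mouse had, how long after the last test the tissue was taken, or at what time of the 12-h light cycle. WT mice were bought from Clea Japan and KO mice came from the RIKEN BioResource Research Center. Genotype and colony therefore cannot be told apart, although the change with stress is measured within each. Whether replicate libraries stem from different animals is not in the labels; a p-value here refers to the spread among libraries, which may be technical.

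Repeated swim or suspension stress acts on the prefrontal cortex through glucocorticoid and monoamine signals and through the firing of its neurons. Firing switches on immediate early genes such as Fos, Arc and Junb within minutes. The cells also run a circadian loop in which CLOCK and BMAL1 drive the Per and Cry repressors and output factors such as DBP through E-boxes, short palindromic DNA motifs. Astrocytes and oligodendrocyte precursors surround the neurons with integrins, proteoglycans and the phosphatase PTPRZ1, through which they bind matrix and activate TGF-beta.

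Estimated counts summed to between 15469590 and 31082240 per library, and a floor of 3 counts corresponded to between 0.0920 and 0.192 CPM (reads of a gene relative to the scaled depth of the library); this floor covers counting error only. Cacna1g stood at 133 to 144 CPM in unstressed WT, 109 to 128 in stressed WT, 54.6 to 65.1 in unstressed KO and 57.6 to 65.95 in stressed KO, so that each KO library lay under each WT library. Markers of neighbouring tissue set some libraries apart. The olfactory bulb score, the centred mean log2 CPM of 13 tested markers, reached 2.87 and 3.07 in 2 of the unstressed WT libraries, numbers 1 and 2, against 0.50 in number 3. Meningeal markers scored 1.26, 1.505 and 0.30 in these 3. In stressed KO library 1 the striatal score was 2.03 and the myelin score 0.71, and in stressed WT library 3 the myelin score was 0.89. Results are therefore also given without unstressed WT libraries 1 and 2, which leaves 1 library in that group and takes the spread from the other groups. Whole-tissue RNA cannot tell fewer cells of a type from less RNA per cell.

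One question of the design is what stress does when both genotypes are averaged. At an adjusted p under 0.05, edgeR's quasi-likelihood test called 6 of 15199 genes (0.0395%), 3 higher (0.0197%) and 3 lower (0.0197%). Dbp and Ciart, both of the circadian clock, and Klf10, a zinc finger factor induced by TGF-beta and by activity, rose. Itgb8, an integrin subunit, Ptprz1, a receptor phosphatase of glia, and Pakap, a locus that joins Palm2 and Akap2, fell. In 5 of the 6 the stressed and unstressed libraries did not overlap within either genotype, which held for 347 of all genes tested (2.28%), 189 of them higher (1.24%) and 158 lower (1.04%); opposite directions were found for 523 (3.44%). In 4 of the 6 all 6 stressed libraries were apart from all 6 unstressed ones (0.849% of all genes tested). Dbp and Itgb8 were called in each of 12 fits that left out 1 library; Ciart was called in 4 of these fits, Klf10 in 3, Ptprz1 in 5 and Pakap in 7. The number of calls in these fits ran from 2 to 2957, the latter without unstressed WT library 3, which leaves that group to libraries 1 and 2.

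Without a correction for multiple testing, 3607 genes (23.7%) had a p under 0.05 in the averaged test, 1639 higher (10.8%) and 1968 lower (12.9%). The test within single genotypes was uneven. It called 3272 genes (21.5%) in WT and 3 (0.0197%) in KO, namely Dbp, Itgb8 and Pakap. The count in WT was 1 without unstressed WT libraries 1 and 2. Asking for a change in each genotype by itself, by the larger of the p for WT and the p for KO, gave 0 genes (0%) after adjustment with edgeR and 5 with DESeq2 (Ciart, Dbp, Itgb8, Ptprz1 and Tef). At an unadjusted p under 0.05 in each genotype, 183 genes (1.2%) shared a sign, 82 higher (0.54%) and 101 lower (0.665%), while 266 (1.75%) had opposite signs. For the 183, the averaged log2 change ran from 0.14 to 1.38 and from -1.73 to -0.16. Without unstressed WT libraries 1 and 2 the averaged test called 1 gene (0.00646%), Dbp, and 102 genes (0.659%) had an unadjusted p under 0.05 in each genotype with a shared sign. Of those, 54 were also among the 183.

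**Figure D1:**
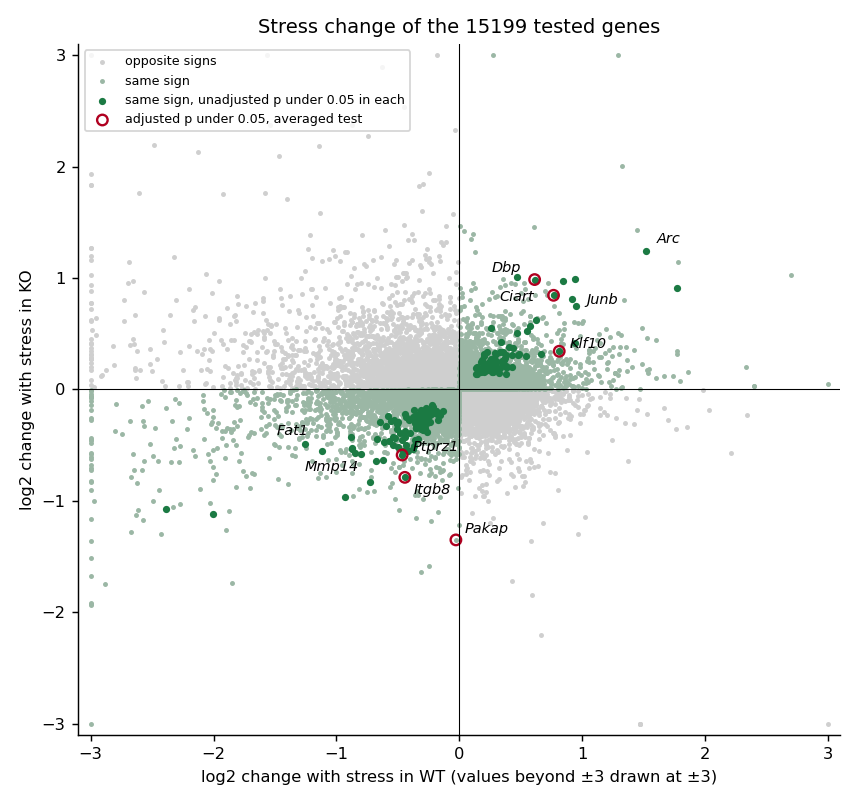
Each point is 1 of the 15199 tested genes, with its log2 change with stress in WT (3 stressed against 3 unstressed libraries) on the horizontal axis and in KO on the vertical axis; values beyond 3 are drawn at the edge. Grey genes have opposite signs, pale green ones the same sign, dark green ones an unadjusted p under 0.05 in each genotype, and red rings mark the 6 genes called in the averaged test, of which Pakap lies at -0.03 in WT and -1.35 in KO.

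Dbp, the D-box binding output factor of the clock, gave the clearest change. Its level was 51.2, 58.9 and 45.8 CPM in the unstressed WT libraries, numbered 1 to 3, and 74.4, 76.5 and 87.4 CPM in stressed WT libraries 1 to 3. The unstressed KO libraries had 51.4, 58.9 and 56.7 CPM, the stressed KO libraries 98.2, 111 and 122 CPM. Every stressed library was above every unstressed library of either genotype. The averaged log2 change was 0.80 ± 0.08 (SE; adjusted p = 0.00378), with 0.61 ± 0.11 in WT and 0.99 ± 0.11 in KO. It was 0.89 (adjusted p = 0.00396) without unstressed WT libraries 1 and 2. Dbp lies on chromosome 7 at 45705088 to 45710203 (GRCm38, plus strand) and overlaps Sphk2 in the annotation. No source used here gives the strand option of the counting, so reads of overlapping genes may not be separated. The estimated counts of Dbp carried no decimals in any library.

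Ciart, which encodes the CLOCK-BMAL1 repressor CHRONO, was scarcer. It stood at 7.09, 7.39 and 8.35 CPM in unstressed WT and 10.8, 13.6 and 14.4 CPM in stressed WT. In KO the values were 8.05, 8.94 and 10.3 CPM without stress against 13.4, 17.0 and 18.7 CPM with it. The highest unstressed library was below the lowest stressed one. The averaged log2 change was 0.81 ± 0.11 (adjusted p = 0.0271), and the changes in WT (0.77 ± 0.15) and KO (0.84 ± 0.15) were of like size, with an adjusted p of 0.832 for their difference (a test that called 1.39% of all genes). With unstressed WT libraries 1 and 2 left out, the change was 0.74 and no longer passed (adjusted p = 0.17).

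The promoters of 5 named clock genes that were higher in both genotypes are shown because the loop acts on such genes through E-boxes. No window was available for Per2, which was also higher in both. Each window runs from 250 bases before to 50 bases after the start of transcription (RefSeq, GRCm38.p6), 5′ to 3′ on the gene's strand. Capitals mark each exact E-box, CACGTG, and in Coq10b also 1 D-box (TTATGTAA, here on the other strand). Ciart holds 3 (chr3:95882179-95882478, minus strand), and the window at the first annotated start of Per1 (chr11:69098699-69098998, plus strand) and of Tef (chr15:81802423-81802722, plus strand) holds 1, as does that of Coq10b, an output gene (chr1:55052520-55052819, plus strand). The Dbp window (chr7:45704997-45705296, plus strand) holds none of these letters, from which nothing follows about binding. The windows at the second annotated start, not shown, hold 1 E-box in Tef and none in Per1. Those of Arntl, which was lower in both genotypes, hold none.
Ciart: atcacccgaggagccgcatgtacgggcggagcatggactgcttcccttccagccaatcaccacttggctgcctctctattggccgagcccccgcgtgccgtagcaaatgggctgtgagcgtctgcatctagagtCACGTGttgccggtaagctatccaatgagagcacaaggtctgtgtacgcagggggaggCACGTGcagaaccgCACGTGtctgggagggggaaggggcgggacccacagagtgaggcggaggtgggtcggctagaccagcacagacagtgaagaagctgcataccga
Per1: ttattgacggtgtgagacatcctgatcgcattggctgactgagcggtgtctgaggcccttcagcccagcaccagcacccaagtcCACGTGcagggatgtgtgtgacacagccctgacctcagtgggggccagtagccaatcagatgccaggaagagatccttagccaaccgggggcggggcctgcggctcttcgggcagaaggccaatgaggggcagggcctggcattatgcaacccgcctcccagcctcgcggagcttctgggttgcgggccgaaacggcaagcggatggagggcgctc
Tef: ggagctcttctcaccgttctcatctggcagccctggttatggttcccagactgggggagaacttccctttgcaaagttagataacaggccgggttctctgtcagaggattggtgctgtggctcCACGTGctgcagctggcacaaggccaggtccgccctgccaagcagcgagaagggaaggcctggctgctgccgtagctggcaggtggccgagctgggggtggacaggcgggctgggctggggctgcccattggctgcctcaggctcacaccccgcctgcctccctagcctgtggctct
Coq10b: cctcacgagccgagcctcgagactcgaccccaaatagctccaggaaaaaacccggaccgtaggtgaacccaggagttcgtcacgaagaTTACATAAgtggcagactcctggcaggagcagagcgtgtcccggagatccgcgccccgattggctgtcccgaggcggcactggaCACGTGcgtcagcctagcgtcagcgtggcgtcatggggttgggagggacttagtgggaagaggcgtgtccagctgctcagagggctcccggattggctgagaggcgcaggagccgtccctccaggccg
Dbp: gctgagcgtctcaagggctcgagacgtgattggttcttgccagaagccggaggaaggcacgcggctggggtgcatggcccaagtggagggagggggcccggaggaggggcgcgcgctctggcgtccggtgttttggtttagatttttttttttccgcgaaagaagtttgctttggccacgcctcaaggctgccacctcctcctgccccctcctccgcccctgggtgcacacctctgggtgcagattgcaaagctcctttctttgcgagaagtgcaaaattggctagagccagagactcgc

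Among all 11461 tested genes with a promoter in that table, 1290 (11.3%) held the E-box letters in at least 1 window. The table held 64 of the 82 genes that were higher in both genotypes at an unadjusted p under 0.05 in each, and 13 of these (20.3%) had an E-box, Ciart and Tef among them. It held 74 of the 101 that were lower in both, and 2 of these (2.7%) had one. The median GC content of the windows was 62.3% and 60.7%, against 60.3% for all tested genes. The other motifs searched, on both strands and each counted by itself, were rare. The D-box TTATGTAA was found for 0.75% of tested genes, the cyclic AMP response element TGACGTCA for 3.46% and the glucocorticoid response element, an inverted repeat, for 0.00873%. Of the 64 genes higher in both, 0, 2 and 0 held them, and of the 74 lower in both, 1, 1 and 0. The exact D-box and glucocorticoid letters are so rare that a count of 0 in so few genes shows no lack of them. The genes were chosen by their measured change, so these shares are descriptions, with no test.

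Of the other clock genes named here, the repressors Per1 and Per2 and the outputs Tef and Coq10b were higher. The activator Arntl, which encodes BMAL1, was lower, and none of these passed the adjusted threshold. Per1 stood at 67.9, 76.5 and 71.7 CPM in unstressed WT and 89.9, 76.8 and 78.0 CPM in stressed WT, and at 59.6, 51.8 and 51.2 against 73.1, 85.3 and 85.3 CPM in KO. Within each genotype the stressed libraries were higher, and the gap in KO was the wider (log2 0.58 ± 0.09 against 0.18 ± 0.09 in WT; adjusted p of the difference 0.0868). The averaged change of Per1 was 0.38 ± 0.07 (adjusted p = 0.0565).

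Per2, the second Period repressor, stood at 23.6, 31.1 and 37.5 CPM in unstressed WT and 45.9, 42.1 and 39.6 CPM in stressed WT. In KO it stood at 24.5, 20.5 and 24.8 CPM without stress against 32.7, 32.0 and 34.3 CPM with it. Its averaged change was 0.49 ± 0.10 (adjusted p = 0.0605) and was 0.47 in WT and 0.50 in KO. The WT value rests on unstressed WT libraries 1 and 2, without which it was 0.18 (averaged 0.34, adjusted p = 0.255). Arntl ran the other way, from 45.2, 43.9 and 48.8 to 41.1, 36.4 and 32.1 CPM in WT. In KO it went from 42.97, 36.7 and 42.9 to 30.95, 32.9 and 32.98 CPM. All stressed values were below the unstressed ones of the same genotype, and the log2 changes were -0.33 and -0.34 (averaged -0.34 ± 0.07, adjusted p = 0.0579). Tef, a relative of Dbp, was abundant and tight: 264, 268 and 283 CPM in unstressed WT, 328, 336 and 339.7 CPM in stressed WT, 282, 309 and 290.5 CPM in unstressed KO and 341, 355.5 and 356 CPM in stressed KO. Its averaged change was 0.28 ± 0.05 (adjusted p = 0.0565). Coq10b, a mitochondrial coenzyme Q protein whose transcript follows the clock in several tissues, differed by 0.38 ± 0.08 (adjusted p = 0.06), with overlap between the KO groups.

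Of 20 tested members of the core loop, 11 shared a sign, 8 higher and 3 lower. In the averaged test 6 of the higher and 2 of the lower ones had an unadjusted p under 0.05, a class that holds 8.53% and 10.2% of all genes tested. A shared sign alone was found for 22.8% of all genes on the higher and 23.4% on the lower side. These shares are the background for each list below. Of 13 output genes, 7 were higher and 2 lower, 6 and 1 of them at an unadjusted p under 0.05, and 2 passed the adjusted threshold. Ciart and Bhlhe40 stand in both lists. The median averaged log2 change was 0.06 over the core loop and 0.20 over the outputs, against -0.0024 over all genes tested. Without unstressed WT libraries 1 and 2 it was 0.02 and 0.25, and 5 and 4 of the members counted as higher had an unadjusted p under 0.05. In that reduced fit the class of shared sign and unadjusted p under 0.05 holds 3.4% of all genes on the higher side and 4.87% on the lower. The summed level of the outputs (mean log2 CPM, centred) ran from -0.12 to -0.07 in unstressed WT, 0.09 to 0.14 in stressed WT, -0.19 to -0.12 in unstressed KO and -0.03 to 0.23 in stressed KO. The output groups did not overlap within either genotype. The core loop score overlapped in WT, with -0.09 to 0.04 unstressed and 0.02 to 0.07 stressed, and its median change there was 0.01; in KO it was -0.12 to -0.10 unstressed and 0.01 to 0.15 stressed.

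**Figure D2:**
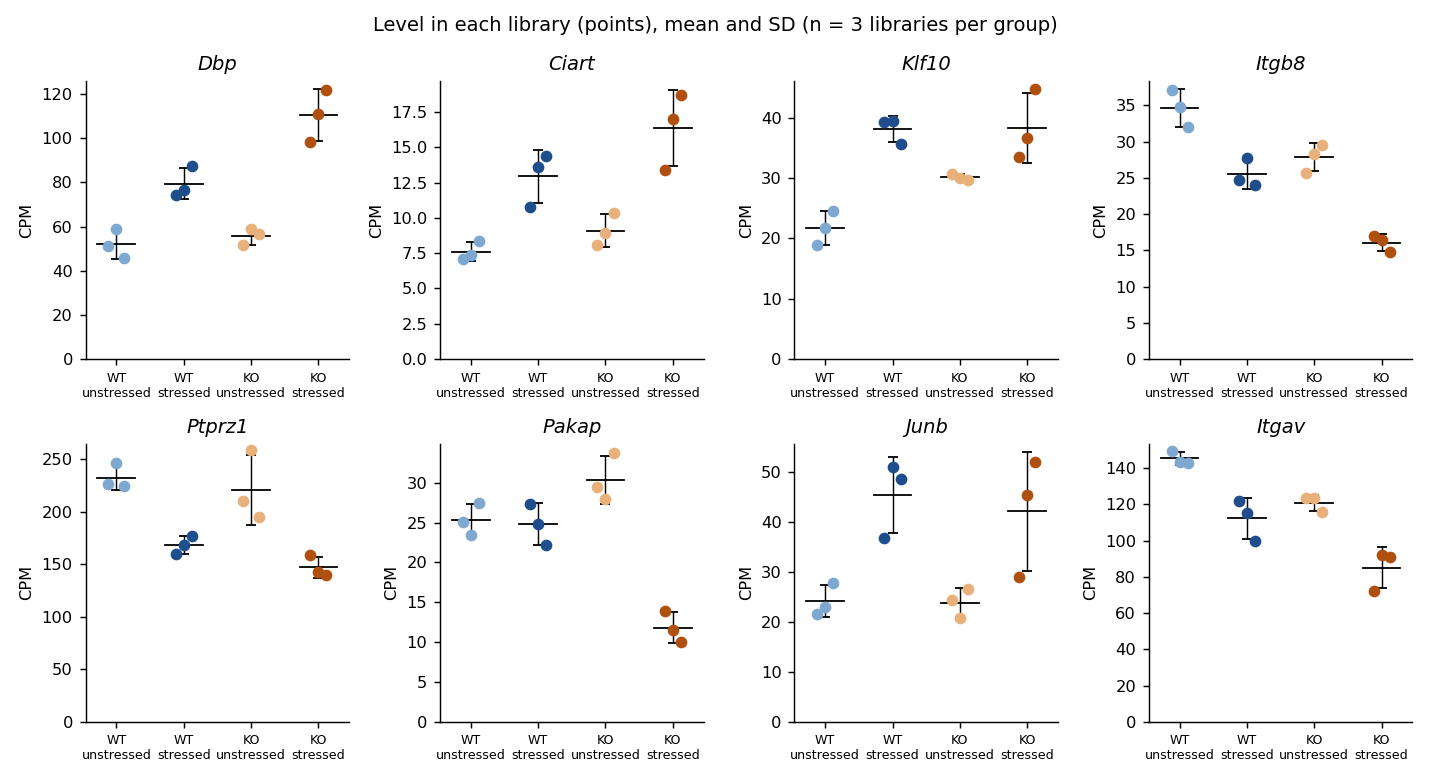
CPM of the 6 genes called in the averaged test and of Junb and Itgav, which were not called, in each of the 12 libraries (points), with the mean (line) and SD (bars) of the 3 libraries of each group. For Dbp the unstressed libraries lie between 45.8 and 58.9 CPM and the stressed ones between 74.4 and 122 CPM, while Pakap is low in the stressed KO libraries alone of the 4 groups (10.05 to 13.9 CPM).

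Of the lists of genes that neurons switch on with activity, 1 member, Klf10, passed the adjusted threshold, and most members with a shared sign were higher. Klf10 stood at 18.8, 21.8 and 24.5 CPM in unstressed WT and 39.2, 39.5 and 35.7 CPM in stressed WT. In KO it stood at 30.7, 30.1 and 29.6 CPM without stress against 33.5, 36.6 and 44.8 CPM with it. All 6 stressed libraries were above all 6 unstressed ones, and the unstressed KO libraries were above the unstressed WT ones. The averaged log2 change was 0.58 ± 0.08 (adjusted p = 0.0279), with 0.81 ± 0.11 in WT and 0.34 ± 0.11 in KO; the adjusted p of their difference was 0.0948. It was 0.49 (adjusted p = 0.169) with unstressed WT libraries 1 and 2 left out. Klf10 lies on chromosome 15 at 38291463 to 38300706 (minus strand) and overlaps no other gene in the annotation.

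Junb, a partner of Fos in the AP-1 factor, stood at 21.6, 22.9 and 27.7 CPM in unstressed WT and 36.75, 51.0 and 48.5 CPM in stressed WT. In KO the values were 24.3, 20.7 and 26.5 CPM and 28.9, 45.4 and 51.9 CPM. The stressed libraries were all higher, with stressed KO library 1 nearest to the unstressed ones (averaged log2 0.86 ± 0.14, adjusted p = 0.0565). Arc, a synaptic effector that forms capsid-like particles, had a larger and less even difference. It went from 28.01, 22.8 and 18.6 to 33.1, 82.0 and 83.6 CPM in WT and from 19.1, 20.6 and 20.5 to 28.1, 41.7 and 74.2 CPM in KO (averaged 1.38 ± 0.27, adjusted p = 0.0579). Library 1 was the lowest of the 3 in both stressed groups. Nr4a1, an orphan nuclear receptor, differed by 0.57 ± 0.12 (adjusted p = 0.0605), by 0.57 in each genotype. Fos differed by 0.78 ± 0.25 (adjusted p = 0.119) and stood at 4.67 CPM in stressed KO library 1, below the unstressed KO libraries (5.11 to 9.23 CPM), but at 11.04 and 17.9 CPM in libraries 2 and 3. Npas4, a neuron-specific activity factor, differed by 0.73 ± 0.25 (adjusted p = 0.126) with overlapping KO groups.

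Of 17 activity-induced transcription factors, 8 were higher and 2 lower in both genotypes, 6 and 0 of them at an unadjusted p under 0.05. Their summed level was 0.29 to 0.31 in stressed WT against -0.10 to 0.14 in unstressed WT. In KO it was -0.39, -0.02 and 0.19 with stress against -0.33 to -0.18 without, and stressed KO library 1, the lowest, is the library with the striatal score of 2.03; the part of that tissue difference in the result was not tested. Of 13 effectors 4 were higher and 2 lower. Rgs2, a brake on G protein signals, differed by 0.24 ± 0.07, while Inhba, an activin subunit (-0.51 ± 0.16, and -0.33 without unstressed WT libraries 1 and 2), and Scg2, a secretogranin (-0.25 ± 0.09), were lower. Of 24 rapid feedback regulators, which shut off kinases and transcripts after a stimulus, 12 were higher and 5 lower. Of these 10 and 0 had an unadjusted p under 0.05, among them Ier5 (0.32 ± 0.08), the phosphatase Dusp1 (0.48 ± 0.15) and Gadd45b (0.35 ± 0.11). Ier5 was 0.59 in WT and 0.04 in KO. Without unstressed WT libraries 1 and 2, the same 3 lists held 3, 2 and 5 members that were higher at an unadjusted p under 0.05. Their median averaged changes were 0.07, 0.09 and 0.12 with all libraries, and 0.01, -0.06 and 0.15 without these 2. With all libraries the medians were 0.30, 0.37 and 0.11 in WT and 0.10, -0.19 and 0.09 in KO. The effector median thus had opposite signs in the genotypes. The effector score overlapped in KO, with -0.04 to 0.11 unstressed and -0.22 to 0.09 stressed.

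**Figure D3:**
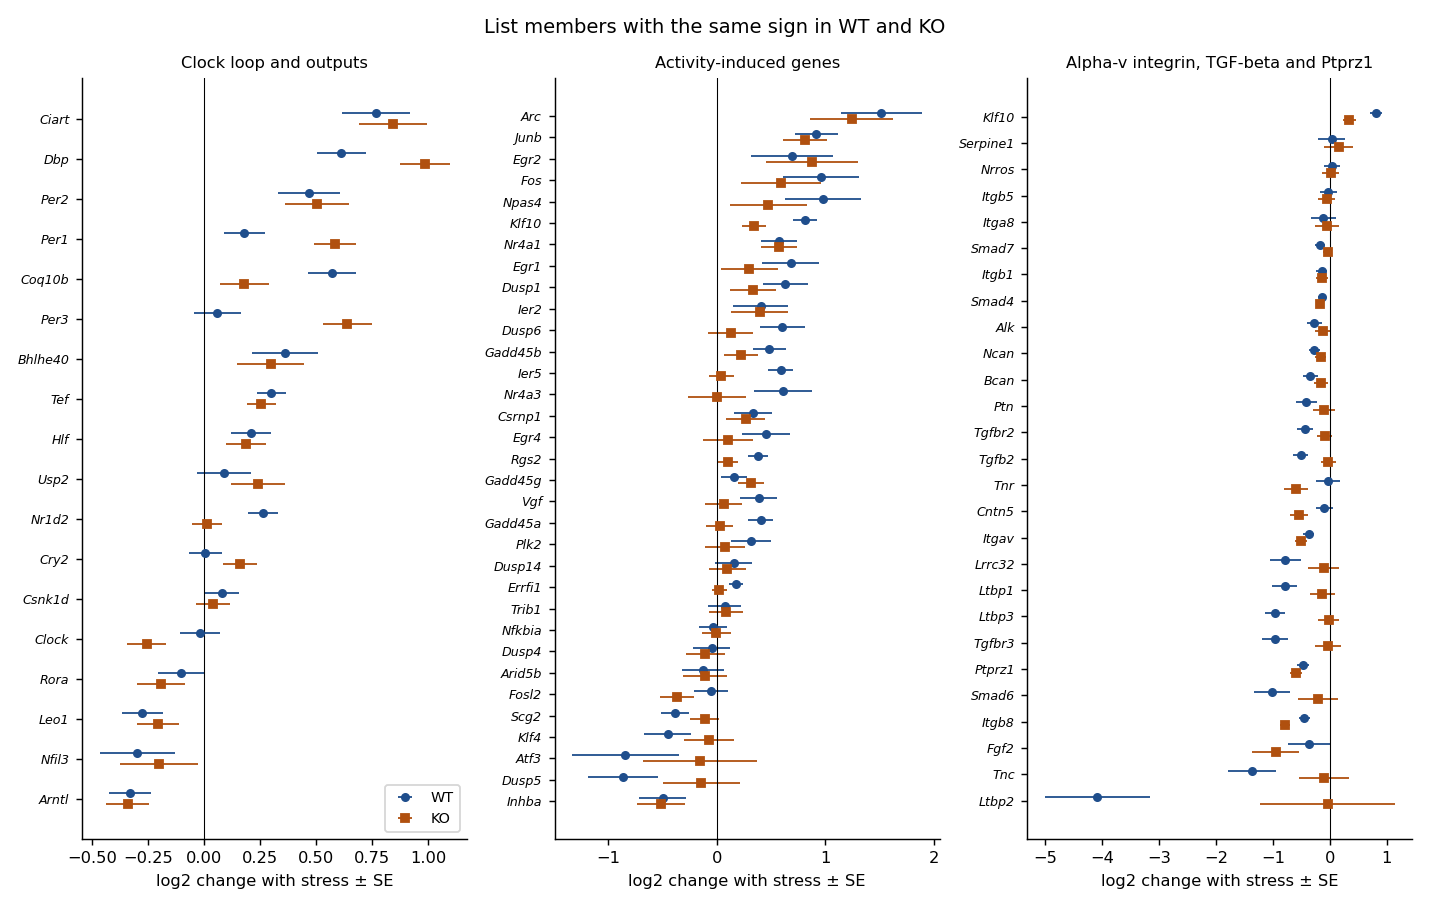
Log2 change with stress ± SE in WT (circles) and KO (squares) for list members with the same sign in both genotypes, ordered by their averaged change. The lists are the clock core loop and outputs, the activity-induced transcription factors and effectors, the rapid feedback regulators, alpha-v integrin and TGF-beta, and Ptprz1 ligands and partners. Ciart, Dbp, Per2 and Tef lie to the right and Arntl to the left of 0 in both genotypes, while Ltbp2, Tnc and Ltbp3 lie far to the left in WT and near 0 in KO.

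The gene with the second smallest p was Itgb8, which pairs with the alpha-v subunit in the receptor that frees TGF-beta from its latent complex. It stood at 37.2, 34.7 and 32.0 CPM in unstressed WT and 24.65, 27.7 and 24.0 CPM in stressed WT, and at 25.7, 28.3 and 29.5 against 17.0, 16.4 and 14.7 CPM in KO. Stressed libraries were below unstressed ones within each genotype, while stressed WT library 2 lay above unstressed KO library 1. Itgb8 fell by 0.62 on the log2 scale (SE 0.06, adjusted p = 0.00444), with -0.44 ± 0.09 in WT and -0.79 ± 0.09 in KO (adjusted p of the difference 0.114). The value without unstressed WT libraries 1 and 2 was -0.56 (adjusted p = 0.0568). It lies on chromosome 12 at 119158022 to 119238802 (minus strand), with a transcript of 8403 bases.

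Its partner Itgav, the alpha-v subunit, stood at 149.6, 143 and 143 CPM in unstressed WT and 122, 115 and 99.6 CPM in stressed WT. In KO it stood at 123.5, 123 and 116 CPM without stress against 72.3, 91.9 and 91.1 CPM with it. Both genotypes separated without overlap, and the averaged change of -0.44 ± 0.07 had an adjusted p of 0.0565. Of 30 tested genes of alpha-v integrins and TGF-beta signalling, 3 were higher and 15 lower in both genotypes. At an unadjusted p under 0.05 these were 1, Klf10, and 11 (8.53% and 10.2% of all genes tested). The 11 include Ltbp3, a latent TGF-beta binding protein, with -0.96 in WT and -0.02 in KO, and -0.44 in WT (averaged -0.23 in place of -0.49) without unstressed WT libraries 1 and 2. The list's median was -0.14, with -0.24 in WT and -0.04 in KO. Its summed level was 0.13 to 0.43 in unstressed WT, the 2 highest values being those of libraries 1 and 2, and -0.24 to -0.04 in stressed WT. In KO it was -0.16 to 0.04 without and -0.14 to -0.06 with stress, so that the KO groups overlapped. With unstressed WT libraries 1 and 2 left out, 6 members were lower at an unadjusted p under 0.05, a class of 4.87% of all genes in that fit.

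Ptprz1 encodes a receptor phosphatase of oligodendrocyte precursors and astrocytes that binds pleiotrophin, tenascins and contactins. It stood at 226, 246 and 225 CPM in unstressed WT and 159.9, 168 and 177 CPM in stressed WT. In KO it stood at 209.9, 259 and 195 CPM without stress against 159, 143 and 139.7 CPM with it. Every stressed library was below every unstressed one. Ptprz1 fell by 0.53 on the log2 scale (SE 0.07, adjusted p = 0.0272), with -0.47 ± 0.10 in WT and -0.59 ± 0.10 in KO, and was at -0.50 (adjusted p = 0.169) without unstressed WT libraries 1 and 2. It lies on chromosome 6 at 22875502 to 23052916 (plus strand).

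Of 19 tested genes for its ligands and partners, 9 shared a sign and all 9 were lower, 6 of them at an unadjusted p under 0.05, and 10 had opposite signs. Besides Ptprz1 the smallest p belonged to the proteoglycan neurocan, Ncan (-0.21 ± 0.07, adjusted p = 0.104). Contactin 5, Cntn5, was at -0.31 ± 0.11, with -0.09 in WT (-0.36 without unstressed WT libraries 1 and 2) and -0.54 in KO, and brevican, Bcan, at -0.25 ± 0.09. The list's median was -0.20 and was again -0.20 without unstressed WT libraries 1 and 2, where 4 of these 9 had an unadjusted p under 0.05. Markers of precursors and astrocytes are given beside this. Of 12 precursor markers, Ptprz1 among them, 7 were lower and 0 higher in both genotypes, and of 15 astrocyte markers 11 and 0 (23.4% and 22.8% of all genes tested). At an unadjusted p under 0.05 these were 3 and 7, and 2 and 3 without unstressed WT libraries 1 and 2. The astrocyte median was -0.23 in WT and -0.25 in KO, but 0.04 in WT without these 2 libraries, where its average moved from -0.25 to -0.13. The astrocyte score was -0.03 to 0.38 in unstressed WT and -0.18 to 0.10 in stressed WT, and -0.34 to 0.42 in unstressed KO and -0.35 to -0.10 in stressed KO. The precursor score was 0.23 to 0.46 and -0.14 to 0.14 in WT, and -0.26 to 0.01 and -0.28 to -0.06 in KO. The part of these marker levels in the change of Ptprz1 was not tested.

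Pakap met the rule for members through a WT change close to 0. It stood at 25.1, 23.4 and 27.5 CPM in unstressed WT and 27.4, 24.9 and 22.2 CPM in stressed WT, groups that overlap. In KO it stood at 29.5, 27.97 and 33.7 CPM without stress against 13.9, 11.5 and 10.05 CPM with it. Pakap fell by 0.69 on average (SE 0.09, adjusted p = 0.0221), with -0.03 ± 0.12 in WT, a sign within its SE, and -1.35 ± 0.13 in KO, and the difference between genotypes passed the test (adjusted p = 0.0496). The value is uncertain. The locus (chromosome 4, 57568179 to 57896982, plus strand) overlaps Palm2 and Akap2, and its estimated counts carried decimals, a sign of reads shared out among overlapping models, in all 12 libraries.

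The 20 genes with the next smallest p were not called (adjusted p = 0.0565 for each). They were 6 higher and 14 lower, and in 17 of them the stressed and unstressed libraries did not overlap within either genotype. Such non-overlap held for 2.28% of all genes tested. The 20 were chosen by their small p in the same libraries, so this count is no separate support. Besides Junb, Tef and Per1 the higher ones were Narf, which binds prenylated prelamin A, Gmpr, a guanosine monophosphate reductase, and Cyb5r1, a cytochrome b5 reductase. Narf was the tightest of these. It stood at 46.1, 45.7 and 46.8 CPM in unstressed WT and 61.2, 59.7 and 59.2 CPM in stressed WT, and at 51.2, 49.2 and 53.9 against 57.3, 57.1 and 55.5 CPM in KO. Every stressed library was above every unstressed one, although the averaged difference was 0.26 ± 0.04, with 0.38 in WT and 0.14 in KO.

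Among the 14 lower genes, Adamts1, a secreted protease that cleaves proteoglycans, was at -0.59 ± 0.10, the membrane protease Mmp14 at -0.83 ± 0.14 and Lox, which cross-links collagen, at -1.73 ± 0.30. Lox was scarce, from 1.42 to 2.24 CPM in unstressed WT to 0.121 to 0.546 CPM in stressed WT and from 0.548 to 0.686 to 0.209 to 0.338 CPM in KO. Its lowest values lie close to the floor of 3 counts. Mmp14 had 20.95, 21.8 and 14.5 CPM in the unstressed WT libraries, and without libraries 1 and 2 its averaged difference was -0.63. Slc38a2, an amino acid carrier, was at -0.38 ± 0.06, Slc4a7, a bicarbonate carrier, at -0.42 ± 0.07 and Tnpo1, a nuclear import receptor, at -0.49 ± 0.08. Cflar, the inhibitor of caspase-8 known as cFLIP, was at -0.40 ± 0.07 and Med13, a Mediator subunit, at -0.28 ± 0.05. The remaining members were Igf2r, the receptor for insulin-like growth factor 2, Dennd4c, Zfc3h1, Samd4 and Ppp1r12b, between -0.52 and -0.29. Slc38a2 and Igf2r had much the larger difference in WT (-0.61 and -0.50, against -0.16 and -0.10 in KO).

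Genes were also ranked by size, among those with an unadjusted p under 0.05 and no overlap in each genotype. A mean log2 CPM no lower than 1 was required as well, which left 59 higher and 68 lower. The 8 largest positive differences were those of Arc, Junb, Nkx6-2, Ciart, Dbp, Mypn, S1pr5 and Klf10. Mypn, a protein of the sarcomere, was at 0.68 ± 0.13. Nkx6-2, a transcription factor of myelinating cells, was at 0.85 ± 0.21 (adjusted p = 0.0742) and S1pr5, a sphingosine phosphate receptor of oligodendrocytes, at 0.62 ± 0.18 (adjusted p = 0.0929). Nkx6-2 reached 7.31 CPM in stressed KO library 1 and 6.72 CPM in stressed WT library 3, the 2 libraries with the highest myelin scores, against 3.52 to 4.11 CPM in the other 4 stressed ones. S1pr5 had 10.03 and 12.0 CPM there and 5.19 to 8.69 CPM in the other stressed ones. Of 20 myelin markers 18 were higher (22.8% of all genes tested) and 1 lower (23.4%) in both genotypes. Of the 18, 14 had an unadjusted p under 0.05 (8.53% of all genes tested) and 0 passed after adjustment. Without unstressed WT libraries 1 and 2, 4 had an unadjusted p under 0.05. The myelin score was 0.24 to 0.89 in stressed against -0.35 to -0.20 in unstressed WT, and in KO -0.44, -0.35 and 0.71 against -0.19 to -0.14, so that without stressed KO library 1 the KO order was the opposite.

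The largest negative differences by that ranking, besides the called Itgb8, were those of Fat1, a giant protocadherin (-0.87 ± 0.16), Mmp14, Nhs (-0.71 ± 0.15), Tnfrsf11b, which encodes the decoy receptor osteoprotegerin (-0.71 ± 0.15), Tor4a (-0.70 ± 0.13), Kank1 (-0.65 ± 0.12) and the kinase Yes1 (-0.56 ± 0.13). Fat1 had 92.6, 106 and 55.5 CPM in the 3 unstressed WT libraries and 29.5 to 43.9 CPM in stressed WT. In KO it stood at 37.2 to 48.0 CPM without and 25.8 to 35.2 CPM with stress. Kank1 had the same order in unstressed WT, with 33.8, 39.3 and 24.5 CPM. Without libraries 1 and 2 the averaged values of Fat1 and Kank1 were -0.57 and -0.45. Yes1 was at -0.30 without them. Tnfrsf11b was less uneven, with 2.19 to 3.17 CPM in unstressed WT, 1.28 to 1.73 CPM in stressed WT, 2.21 to 2.60 CPM in unstressed KO and 1.253 to 1.92 CPM in stressed KO, and was at -0.55 without them.

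Glucocorticoid-responsive genes shared a sign in 17 of 28 tested members, 9 higher and 8 lower (22.8% and 23.4% of all genes tested). Of these 5 and 1 had an unadjusted p under 0.05 (8.53% and 10.2% of all genes tested) and none passed the adjusted threshold. Klf15, a direct target of the receptor, was at 0.24 ± 0.09, with 0.09 in WT (0.27 without unstressed WT libraries 1 and 2) and 0.38 in KO. Per1 and Dusp1, named above, are in this list as well. Angptl4, a lipase inhibitor, was at -0.52 ± 0.20, and at -0.30 without unstressed WT libraries 1 and 2. Its change was -1.01 in WT and -0.025 ± 0.30 in KO, a KO sign within its SE. The list's median was 0.10, with 0.16 in WT and -0.0016 in KO.

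Cholesterol synthesis was the pathway list with 13 higher and 0 lower members of 27, 11 of them at an unadjusted p under 0.05 and 8 without unstressed WT libraries 1 and 2. The other 14 members had opposite signs. The list's median in WT was 0.37 against 0.02 in KO. Mvd, the mevalonate diphosphate decarboxylase, was alike in both (0.38 ± 0.10 in WT, 0.31 ± 0.10 in KO, adjusted p of the average 0.0613). Fdps, the farnesyl diphosphate synthase, was at 0.55 in WT and 0.0020 in KO, and Fdft1, the squalene synthase, at 0.63 and 0.11 (0.40 in WT without unstressed libraries 1 and 2). The summed level was -0.34 to -0.21 in unstressed WT and -0.05 to 0.11 in stressed WT, and 0.05 to 0.17 and 0.03 to 0.18 in the KO groups.

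Of 26 genes of the endoplasmic reticulum and integrated stress responses, 9 were higher and 3 lower. At an unadjusted p under 0.05 these were 6 and 0, beside 8.53% and 10.2% of all genes tested. Mthfd2, a mitochondrial folate enzyme, was at 0.41 ± 0.09 (0.44 in WT and 0.38 in KO), and Xbp1, a factor of the unfolded protein response, at 0.28 ± 0.05 (0.40 and 0.15). Of 75 tested nuclear-encoded subunits of oxidative phosphorylation, 7 shared a sign, and the list's median was 0.31 in WT and -0.12 in KO. The KO groups of its score overlapped, with unstressed KO library 2 alone at 0.40, and the difference between genotypes was not tested. Of 32 postsynaptic density genes 1 was higher and 8 lower, 4 of the 8 at an unadjusted p under 0.05, which is near the background of 23.4% and 10.2% of all genes. Homer2, a scaffold protein of the synapse, was at -0.43 ± 0.12 (-0.57 in WT and -0.29 in KO), and at -0.27 (-0.25 in WT) without unstressed WT libraries 1 and 2. Of 17 heat shock genes, 2 were higher and 2 lower.

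**Figure D4:**
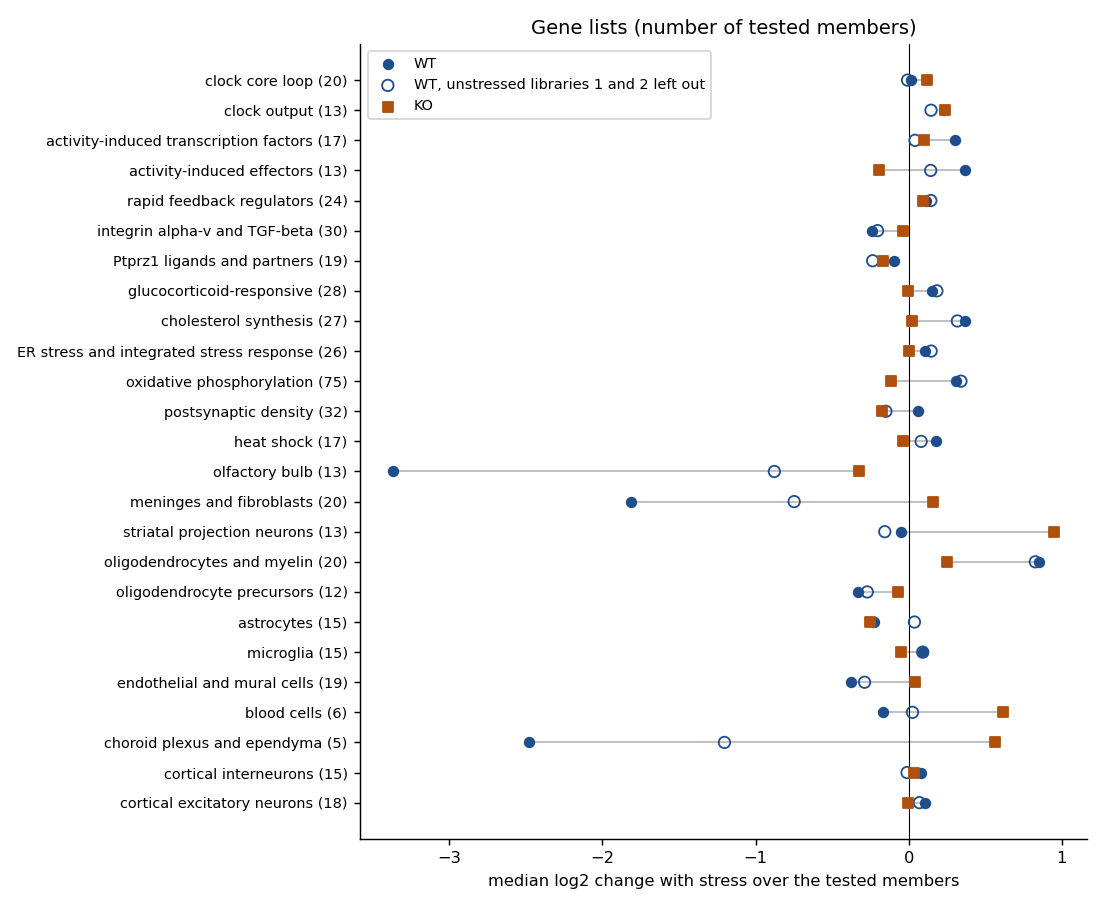
Median log2 change with stress over the tested members of each gene list (number in parentheses), in WT with all libraries (filled circles), in WT without unstressed libraries 1 and 2 (open circles) and in KO (squares). The olfactory bulb, meningeal and choroid plexus medians lie far to the left in WT and move towards 0 without the 2 libraries, while the clock output list lies to the right of 0 in all 3 (0.23, 0.15 and 0.24).

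The remaining marker lists differed in whether a few libraries set their values. Of 13 olfactory bulb markers 10 were lower and 1 higher in both genotypes, with a median of -3.37 in WT, -0.88 in WT without unstressed libraries 1 and 2, and -0.33 in KO. Of 13 striatal markers 5 were higher and 0 lower, with -0.05 in WT and 0.95 in KO, where library 1 alone scored above 0.11. Meningeal markers shared a sign in 2 of 20 and choroid plexus markers in 0 of 5, with a choroid plexus score of 0.09 to 0.45 in stressed KO and -0.65 to -0.08 in unstressed KO. Blood markers shared a sign in 3 of 6, and their score was 0.65 to 1.06 in stressed KO, -1.47 to 0.54 in unstressed KO, -0.87 to -0.11 in stressed WT and -0.48 to 0.61 in unstressed WT. Both scores were higher in all 3 stressed KO libraries than in the unstressed ones; their part in the results was not tested. Microglial markers had 2 higher and 2 lower of 15, endothelial and mural markers 2 and 3 of 19, and cortical excitatory markers 5 and 5 of 18. Interneuron markers had 7 and 3 of 15, beside 22.8% and 23.4% of all genes tested.

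A feature that the choice by sign did not use was the length of the transcript (the longest coding transcript of GENCODE mouse release 21). The 82 genes higher in both genotypes at an unadjusted p under 0.05 in each had a median transcript length of 1962 bases, and the 101 lower in both 6962 bases, against 3228 bases for all tested genes. Lengths were found for 93.9% and 97% of them. The median 3′ untranslated region was 660 and 3288 bases (1181 for all), the genomic span 10.3 and 84.7 kb (24.9 kb for all) and the GC content of the transcript 55.5% and 44.5% (50.3% for all). Without unstressed WT libraries 1 and 2 the 2 sets of the same kind had medians of 1970 and 7924 bases. Genes with an unadjusted p under 0.05 in each genotype but opposite signs had medians of 3833 bases (higher in WT) and 3044 bases (lower in WT). In GC content the opposite-sign sets were as far apart, with medians of 41.55% and 55.0%. Their median 3′ untranslated regions, 2232 and 906.5 bases, were also apart, though less so than those of the shared-sign sets. A split by GC content or by the 3′ untranslated region was therefore not particular to the genes with a shared sign.

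With all genes split into 5 equal bins by transcript length, the genes higher in both numbered 31, 29, 9, 4 and 4 from the shortest to the longest bin, and the genes lower in both 2, 1, 6, 13 and 76. Over the longest bin, 2799 genes of 5221 bases and more, the median log2 change was -0.10 in WT and -0.10 in KO, and -0.14 in WT without unstressed libraries 1 and 2. Over the shortest bin it was 0.14 in WT and 0.02 in KO. The median level of the longest bin in single libraries (log2 CPM, centred on each gene's mean) was 0.01, 0.11 and 0.11 in unstressed WT against -0.04, 0.0013 and -0.02 in stressed WT. In KO it was 0.01, -0.02 and 0.08 without stress and -0.02, -0.06 and -0.16 with it. The stressed libraries were lower in WT, and the KO groups overlapped, since unstressed KO library 2 was at -0.021 and stressed KO library 1 at -0.020. No measure of RNA quality was used here, so the part of RNA integrity or library preparation in this pattern was not tested. When a trend with length was removed from each library, an alternative chosen after seeing the data, 7 genes were called, 5 of the 6 among them, and Ptprz1 no longer passed (log2 -0.41, adjusted p = 0.103).

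**Figure D5:**
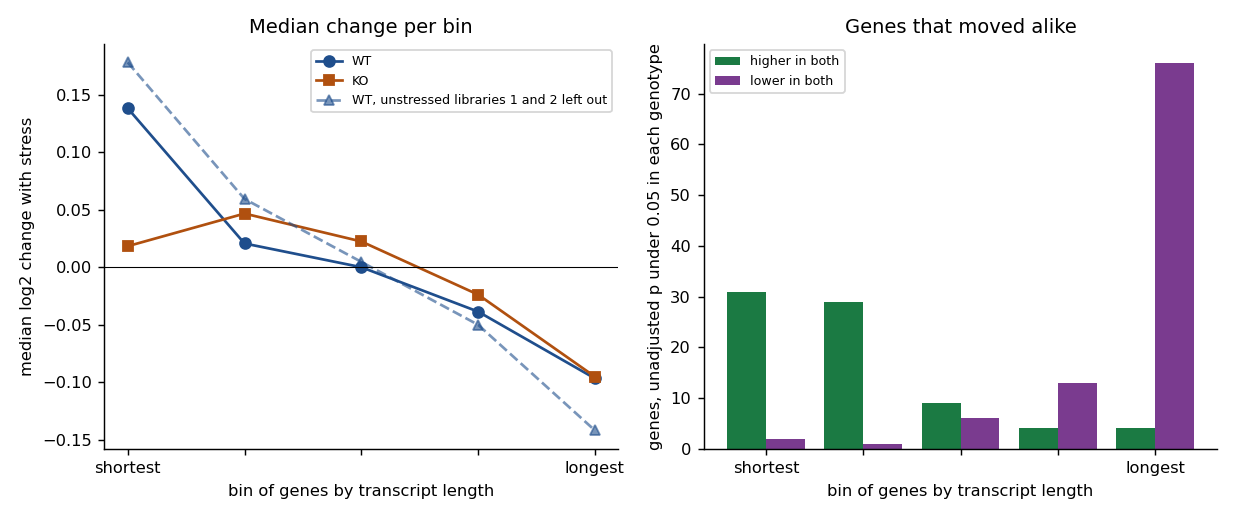
Left, median log2 change with stress per bin of genes by transcript length, 5 bins in all, in WT, in KO and in WT without unstressed libraries 1 and 2; right, the number of genes higher or lower in both genotypes (unadjusted p under 0.05 in each) per bin. The medians of both genotypes are lowest in the longest bin, which holds 76 of the genes lower in both and 4 of those higher in both.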

How the data were processed

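RNA-seq of 12 libraries from the medial prefrontal cortex was used, 3 for each of 4 groups taken from the titles. The deposited table holds RSEM-style estimated counts by gene, unscaled, with a column for each library. The submitters' processing notes name DESeq2 1.36.0, RSEM 1.3.1, STAR 2.7.9a and Trim Galore 0.6.6, with mm10 as the build. Annotation, read filters and the strand option of the counting were not given in the sources used here. Per the labels' protocols, the library kit keeps strand. Between 874 and 1032 genes per library carried decimals, where reads were shared out among models. The expected counts were rounded, genes with low counts were removed with filterByExpr (minimum count 10, minimum total 15), and libraries were scaled with TMM. Of 24411 genes, 4800 had no count, 4412 too few and 15199 were tested.

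Stress was tested in 1 edgeR quasi-likelihood fit (edgeR 4.0.16, limma 3.58.1, R 4.3.3) of all 12 libraries as 4 group means, with 8 residual degrees of freedom, two-sided, adjusted by Benjamini-Hochberg over all genes tested, at 0.05. It gave the change in WT, in KO, their average and their difference. Errors (SE) are approximate, each the size of the log2 change divided by the square root of the F statistic of its test. Log2 CPM values used a prior count of 2. Gene lists are described by counts and medians, with no test. The members and lists were chosen with earlier results of these data known. Named genes with a shared sign were every called gene, the 20 next by p, the 8 largest changes each way among genes with an unadjusted p under 0.05 in each genotype, no overlap and a mean log2 CPM no lower than 1, and up to 4 members per list described, besides Cacna1g; Bhlhe40, Palm2, Akap2, Ltbp2 and Tnc were named after their values were seen. Positions, lengths and GC content come from GENCODE mouse release M21 on GRCm38, where 14594 tested symbols (96%) were found, and promoters from RefSeq on GRCm38.p6. Alternatives used DESeq2 1.42.0 and sva 3.50.0, no filter, a replicate block, an olfactory bulb covariate, an additive model, fewer libraries, and, chosen after seeing the data, removal of trends with transcript length or GC content. The test was tried on simulated data.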

Additional observations from a re-analysis of the deposited data

Results flagged for a closer look

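The change of Pakap with stress differed between the genotypes. The log2 change in KO minus that in WT was -1.32 ± 0.17 (SE), with an edgeR adjusted p of 0.0496. The 3 stressed KO libraries, at 10.05 to 13.9 CPM, were below the other 9 libraries, at 22.2 to 33.7 CPM. Its estimated counts carried decimals in all 12 libraries, a sign of reads shared with other models, and the locus overlaps Palm2 and Akap2. Which models shared or lost reads cannot be told from counts per gene.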

How the results depend on the processing

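Dbp was called in all 12 leave-one-out fits and in every other alternative run (adjusted p between 5.63e-17 and 0.0284). For stress averaged over both genotypes, 6 genes were called in the fit reported, 1200 with DESeq2, 24 with the replicate block, 3 with 1 surrogate variable, 1 with the score of olfactory bulb markers in the fit, 1 without unstressed WT libraries 1 and 2, and 13 when stressed KO library 1 was left out too. The additive model, with 1 stress effect for both genotypes, called 4 genes. These were Dbp, Ciart, Itgb8 and Ptprz1, while Klf10 and Pakap lost the call. Leaving out single libraries gave 2 to 2957 genes. The count was 2957 without unstressed WT library 3, 49 without stressed KO library 1, 12 without unstressed KO library 3 and 2 to 5 otherwise. Itgb8 was called in all 12. Ciart, Klf10, Ptprz1 and Pakap each lost the call (adjusted p up to 0.128) without stressed WT library 2 or 3, unstressed KO library 1, or stressed KO library 2 or 3. Ciart also lost it without unstressed WT library 1 or 2 or unstressed KO library 2, Klf10 without unstressed WT library 2, stressed WT library 1 or unstressed KO library 2 or 3, and Ptprz1 without unstressed WT library 2 or stressed WT library 1. For stress in WT, 3272 genes became 0 with 1 surrogate variable, 0 with the olfactory bulb score, 1 without unstressed WT libraries 1 and 2, 5 without stressed KO library 1 as well, 1 with only the WT groups in the fit, and 0 to 5619 without single libraries. For stress in KO, 3 genes became 44 with DESeq2, 6 with the olfactory bulb score, 9 without the 3 libraries, and 1 to 5 without single libraries. The larger of both p gave 5 genes with DESeq2 and 0 without any single library. The genes with a shared sign numbered 6515 to 7578 without single libraries. The cause of these differences was not tested. The averaged change of no gene named by the rule reversed under the alternatives run; changes within 1 genotype, such as that of Pakap in WT, which lies within its SE of 0, were not recomputed gene by gene without single libraries. Whether replicate numbers pair the libraries cannot be told from 3 libraries per group. Same-number libraries correlated in their deviations from the group means by 0.30, -0.25 and 0.05 in WT and -0.08, 0.01 and -0.12 in KO. Different-number libraries ran from -0.28 to 0.28 in WT and from -0.07 to 0.14 in KO. Libraries of WT and KO were not compared with each other. The edgeR fit with the replicate block kept the calls of all 6 genes (adjusted p 0.00363 to 0.0325). With 3 libraries per group, and 1 in unstressed WT in the reduced fits, small differences were not detectable, and for genes near 3 counts counting error limits the values.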
